A study of Mus musculus with 6 samples.

Results

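The MAPK feedback genes examined here are 10 genes for negative regulators that cells make in answer to mitogen-activated protein kinase (MAPK) signalling: the dual-specificity phosphatases Dusp1, Dusp2, Dusp4, Dusp5, Dusp6 and Dusp10, the Sprouty genes Spry1 and Spry2, and the Sprouty-related genes Spred1 and Spred2. They were taken by symbol from the 55401 gene identifiers of a count table, and all 10 were found and passed the filter on low counts. The table held 6 RNA-seq libraries of group 3 innate lymphoid cells (ILC3s, tissue-resident lymphocytes that secrete interleukin 22) taken from lamina propria of the small intestine in pups of wild-type mice. Cells of 3 libraries had been pretreated with vehicle and those of the other 3 with PEox, which the labels do not spell out. No exact age, dose or duration was stated. Whether each library is from its own animals is not said, so each p-value covers the spread among the libraries alone, and that spread may be technical. The comparison asks how transcripts of ILC3s differed after PEox, in a series about ferroptosis of the epithelium and failing ILC3s in necrotizing enterocolitis.

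MAPK pathways carry signals from receptors through Ras and a chain of kinases to ERK, and stress signals through parallel chains to JNK and p38. Dual-specificity phosphatases of the MAPK family switch these kinases off by removing phosphate from both the threonine and the tyrosine of the activation loop. Sprouty proteins act further up, between receptors and the Raf kinases, and Spred proteins bring the Ras inactivator neurofibromin to the membrane. Many of these genes are themselves transcribed in response to ERK activity, so that the pathway limits itself. In lymphocytes they restrain signals from antigen, cytokine and growth factor receptors.

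Libraries held 56252806 to 66849230 counts. Values below are CPM, a gene's share of the counts of its library, scaled by the TMM method, which sets the typical gene to no change. Per the labels the cells are ILC3s, although the protocol text speaks of sorted epithelial cells. Counts of 13 ILC3 markers summed to 12800 to 13100 CPM in vehicle and 7380 to 7480 CPM in PEox, with no marker at 0. At 0 here means no counts in all 3 PEox libraries or in all 6, so a marker could still lack counts in single libraries. Of these 13 markers 7 were called lower and 3 higher. Most of the drop in the sum was in Il22 (means of 6720 and 2510 CPM) and Id2 (3000 and 1680 CPM), and the other 11 summed to 3230 to 3272 CPM in vehicle and 3209 to 3303 CPM in PEox. Il23r, part of the interleukin 23 receptor, had means of 215 and 203 CPM and was not called. Those of 11 epithelial markers summed to 98.1 to 111 CPM and to 59.2 to 67.2 CPM, with Alpi at 0 throughout and Fabp2 at 0 in PEox, and 3 of the 6 tested were called lower. Markers of other cells shifted as well. All 7 B cell markers were called lower (summed 274 to 293 CPM in vehicle, 34.4 to 41 CPM in PEox, none at 0), as were 5 of 8 T cell markers (106 to 118 and 43.3 to 56.1 CPM, 1 called higher, Cd8a at 0 in PEox). All 12 cell cycle genes were also called lower (953 to 996 and 278 to 282 CPM, none at 0). Of 7 erythroid genes 5 were called higher (2750 to 2800 and 5120 to 5810 CPM, none at 0). Of the tested markers, 4 of 7 were called lower for ILC1 and NK cells (179 to 195 and 83.4 to 85.6 CPM, Klra8 and Klra4 at 0 in PEox) and 3 of 7 for ILC2s, with 1 higher (172 to 192 and 136 to 139 CPM, Il13 at 0 in PEox). Likewise 6 of 13 were called lower for myeloid cells (274 to 289 and 141 to 193 CPM, none at 0) and 5 of 8 for mast cells and other granulocytes (49.7 to 53.7 and 9.1 to 15.8 CPM, Epx at 0 throughout, Mcpt8 at 0 in PEox). For stroma and endothelium 4 of 8 were called higher and 1 lower (237 to 262 and 361 to 386 CPM, Cdh5 and Kdr at 0 in PEox). The part these other cells had in the results that follow was not tested. In bulk RNA, fewer cells of a type and less RNA per cell cannot be told apart.

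The feedback genes did not all move one way. Dusp5, Spry2 and Spred1 rose, Dusp1 and Dusp2 fell, and Dusp4, Dusp6, Dusp10, Spry1 and Spred2 did not pass the test. These are 5 called genes of 10, at an adjusted p under 0.05 in the edgeR quasi-likelihood test over all 18253 tested genes, of which 37.1% were called. Among better expressed genes the share was larger. A fit of genes with at least 5 CPM in 3 libraries, which left out Spred2, called 6507 of 10743 genes and 7 members. The share of all tested genes called higher was 18.3%, against 3 of the 10 members, and the share called lower was 18.8%, against 2 of the 10. CPM values of the groups did not overlap for 7 members, beside 50.6% of all tested genes. The median log2 fold change of the members was 0.24, and that of all tested genes was 0.00. Scaling by library size alone moved the median of all genes to 0.14 and gave 5 members higher and 1 lower, with 61.9% of all calls higher instead of 49.3%. Removal of each library's trend on transcript length and GC content gave 4 members higher and 1 lower, with 60.1% of all calls higher.

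**Figure D1:**
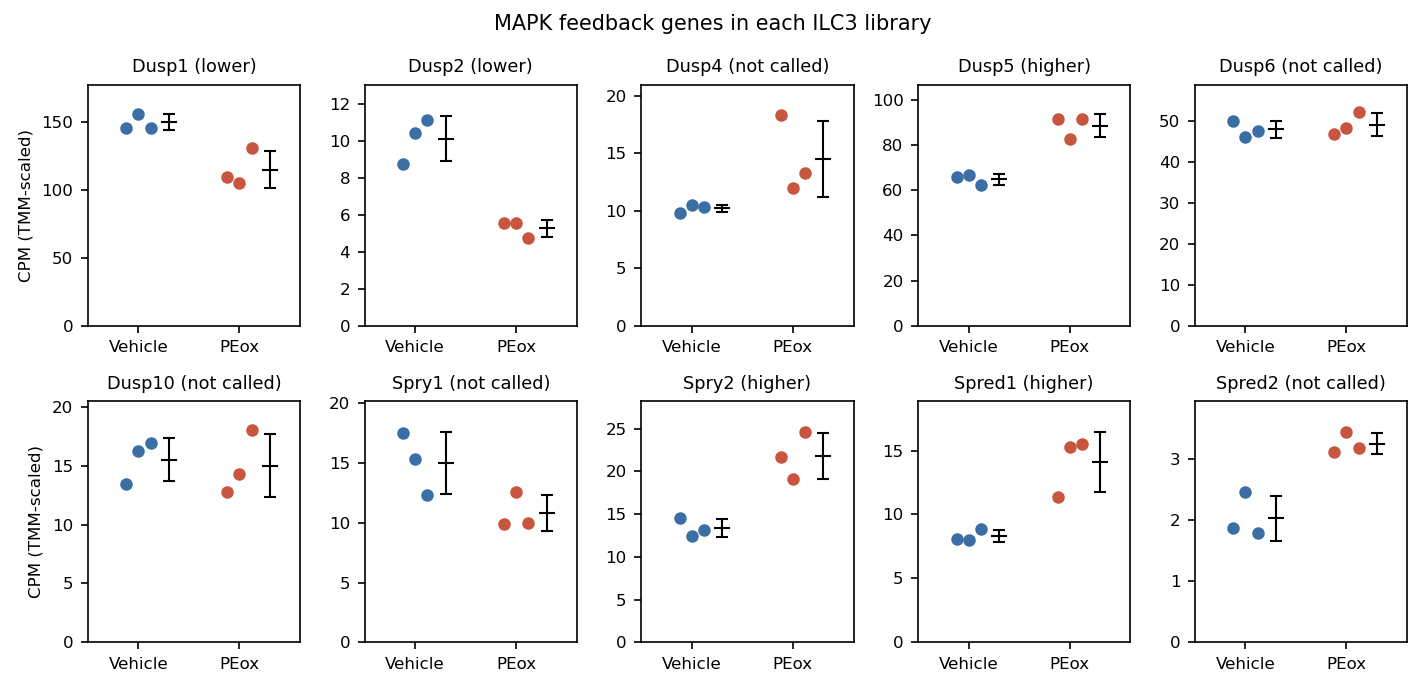
CPM (TMM-scaled, vertical axis from 0) of each feedback gene in the 3 vehicle libraries (blue) and the 3 PEox libraries (red), with the group mean and SD beside the points and the call of the edgeR test in each title. Dusp5, Spry2 and Spred1 lie higher in all PEox libraries and Dusp1 and Dusp2 lower, while the points of Dusp6 and Dusp10 overlap between the groups.

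Among the inducible phosphatases of the nucleus, Dusp1 and Dusp2 fell, Dusp5 rose and Dusp4 did not pass the test. Dusp1 (ENSMUSG00000024190) encodes an immediate early phosphatase that acts mainly on p38 and JNK, and it was the most abundant of the 10 per length of transcript. It stood at 146, 156 and 146 CPM in vehicle libraries 1 to 3 and at 110, 105 and 131 CPM in PEox libraries 1 to 3. All PEox libraries lay below all vehicle libraries, the third by the smallest margin. With means of 150 ± 5.86 and 115 ± 13.6 CPM (SD, n = 3), Dusp1 fell by 0.38 ± 0.09 in log2 units (SE; edgeR adjusted p = 0.00958). The call was lost with library size scaling (log2 fold change -0.24, edgeR adjusted p = 0.0632), without vehicle library 2 (-0.34, adjusted p = 0.0505) and when the trend on length and GC was taken out (-0.16, adjusted p = 0.193).

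Dusp5 (ENSMUSG00000034765) encodes a nuclear phosphatase that is selective for ERK. Its level was 65.7, 66.6 and 62.1 CPM in vehicle and 91.6, 82.7 and 91.6 CPM in PEox. The lowest PEox library lay well above the highest vehicle library. Means were 64.8 ± 2.41 and 88.6 ± 5.14 CPM (SD, n = 3), so that Dusp5 rose 1.37-fold, or by 0.45 ± 0.07 in log2 units (SE; edgeR adjusted p = 0.00138). In all 14 alternative analyses it was called higher, with log2 fold changes from 0.42 to 0.63. A GENCODE antisense transcript of the opposite strand covers 22.1% of the exonic bases of Dusp5 and had at most 111 counts in a library, beside 3780 to 5545 counts of Dusp5.

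Dusp1 and Dusp5 were the members with the highest CPM, and they moved in opposite directions, so the sequences before their transcription starts are shown together. They come from RefSeq on the mouse build GRCm38.p6, which held a promoter for 9 of the 10 members, and run from 250 bases before to 50 bases after the annotated start. The Dusp1 promoter lies at chr17:26508423-26508722 on the minus strand and the Dusp5 promoter at chr19:53528895-53529194 on the plus strand. The build behind the counts was not given in the sources used here. Capitals mark matches to any of 8 searched motifs, and each run reads 5′ to 3′ along the gene.
Dusp1: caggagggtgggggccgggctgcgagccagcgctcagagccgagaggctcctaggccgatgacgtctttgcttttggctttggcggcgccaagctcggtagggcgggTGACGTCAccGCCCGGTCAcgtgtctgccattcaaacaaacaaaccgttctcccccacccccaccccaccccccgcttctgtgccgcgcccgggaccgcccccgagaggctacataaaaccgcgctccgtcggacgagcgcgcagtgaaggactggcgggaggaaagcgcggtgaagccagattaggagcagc
Dusp5: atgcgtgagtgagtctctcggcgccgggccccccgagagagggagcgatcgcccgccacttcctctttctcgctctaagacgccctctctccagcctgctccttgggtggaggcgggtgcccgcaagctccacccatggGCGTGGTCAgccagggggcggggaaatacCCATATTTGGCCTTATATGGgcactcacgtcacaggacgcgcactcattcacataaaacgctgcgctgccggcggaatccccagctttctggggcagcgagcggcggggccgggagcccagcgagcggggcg

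In the Dusp1 promoter the cAMP response element TGACGTCA stands at bases -143 to -136 from the start, a motif present in 1.79% of 32851 mouse promoters of the same length. The Dusp5 promoter holds adjoining serum response elements of the CArG type, CCATATTTGG at bases -82 to -73 and CCTTATATGG at bases -72 to -63. A CArG box stood in 1.63% of those promoters, and at least 2 of them stood in 6 promoters, or 0.0183%. Both promoters also hold a core of the antioxidant response element (TGACNNNGC), found in 12.4% of promoters. No match was found in the windows of the other 7 members for these motifs or for the AP-1 site TGACTCA (5.2% of promoters), the ETS site CCGGAAG (8.86%), the forkhead site TGTTTAC (3.65%), the STAT site TTCNNNGAA (8.3%) and an NF-kB site (4.51%). Both strands were searched, and a match describes letters and not binding. Srf, which encodes the factor that binds CArG boxes, stood at 12.1, 13.8 and 12.6 CPM in vehicle and 30.7, 28.9 and 24.4 CPM in PEox. Its log2 fold change was 1.13 ± 0.13 (SE; edgeR adjusted p = 0.000285). Whether Srf had a part in the level of Dusp5 was not tested.

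Dusp2 (ENSMUSG00000027368) encodes a phosphatase typical of activated lymphocytes, which acts on ERK and p38. It was measured at 8.72, 10.4 and 11.1 CPM in vehicle and at 5.54, 5.53 and 4.74 CPM in PEox, with a clear gap between the groups. Means were 10.1 ± 1.21 and 5.27 ± 0.459 CPM (SD, n = 3), and Dusp2 fell 1.91-fold, by 0.93 ± 0.18 in log2 units (SE; edgeR adjusted p = 0.00405). It was called lower in all 14 alternatives, from -1.03 to -0.59 on the log2 scale. The smallest change came with the trend on length and GC taken out, at -0.59 (edgeR adjusted p = 0.0343). All 7 B cell markers given above were called lower, as were 5 of 8 T cell markers, with 1 higher. Markers of other cells shifted too, and the part of any of these cells in the fall of Dusp2 was not tested.

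Dusp4 (ENSMUSG00000031530), whose product acts on ERK and JNK in the nucleus, lay at 9.82, 10.5 and 10.3 CPM in vehicle and 18.3, 12 and 13.3 CPM in PEox. The groups did not overlap, but PEox library 1 stood far above the other two of its group. The log2 fold change of 0.51 ± 0.18 (SE) did not pass, at an edgeR adjusted p of 0.0597. Dusp4 was called higher in 5 of 14 alternatives, with edgeR at a minimum of 5 CPM (adjusted p = 0.0392), under library size scaling (0.0227), without PEox library 2 (0.0323) and with the trend removed (0.0257), and with DESeq2 (0.0341).

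The remaining phosphatases, Dusp6 and Dusp10, did not pass the test. Dusp6 (ENSMUSG00000019960) encodes the cytoplasmic phosphatase of ERK, a common readout of ERK activity. It measured 50.1, 46 and 47.7 CPM in vehicle and 46.9, 48.2 and 52.3 CPM in PEox, and the groups overlapped. Its log2 fold change was 0.03 ± 0.08 (SE; edgeR adjusted p = 0.786). Dusp10 (ENSMUSG00000039384), which encodes a phosphatase for JNK and p38, measured 13.4, 16.2 and 16.9 CPM in vehicle and 12.8, 14.3 and 18 CPM in PEox, again overlapping. Its log2 fold change was -0.04 ± 0.17 (SE; edgeR adjusted p = 0.878), and 0.09 under library size scaling.

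Of the Sprouty genes, Spry2 rose and Spry1 did not pass the test. Spry2 (ENSMUSG00000022114) encodes an inhibitor of signalling from receptor tyrosine kinases to Ras. Its values were 14.6, 12.5 and 13.1 CPM in vehicle and 21.7, 19.1 and 24.6 CPM in PEox, with no overlap. Means were 13.4 ± 1.08 and 21.8 ± 2.7 CPM (SD, n = 3). Spry2 rose 1.63-fold, by 0.70 ± 0.14 in log2 units (SE; edgeR adjusted p = 0.00446). All 14 alternatives called it higher, between 0.61 and 0.91. Spry1 (ENSMUSG00000037211), a close relative with the same place in the pathway, lay at 17.5, 15.3 and 12.3 CPM in vehicle and 9.89, 12.6 and 10 CPM in PEox. Vehicle library 3 was below PEox library 2, so the groups overlapped, and the log2 fold change of -0.47 ± 0.18 (SE) did not pass (edgeR adjusted p = 0.0745). A GENCODE transcript of unknown kind on the other strand covers 24.4% of the exonic bases of Spry1 and had at most 17 counts. Spry1 was called lower in 2 of 14 alternatives, with edgeR at a minimum of 5 CPM (adjusted p = 0.0399) and without PEox library 2 (0.0466).

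The Spred genes both lay higher in every PEox library. Spred1 (ENSMUSG00000027351), whose product anchors neurofibromin at the membrane, measured 8.06, 8 and 8.86 CPM in vehicle and 11.4, 15.3 and 15.5 CPM in PEox. From 8.31 ± 0.477 CPM in vehicle and 14.1 ± 2.32 CPM in PEox (SD, n = 3), Spred1 rose 1.69-fold, by 0.76 ± 0.17 in log2 units (SE; edgeR adjusted p = 0.00792). Every one of the 14 alternatives called it higher, from 0.66 to 0.90. Spred2 (ENSMUSG00000045671) was the scarcest member, at 1.86, 2.45 and 1.78 CPM in vehicle and 3.11, 3.43 and 3.17 CPM in PEox, which are 112 to 139 counts and 183 to 203 counts a library. Its log2 fold change of 0.67 ± 0.26 (SE) was close to that of Spred1 and did not pass (edgeR adjusted p = 0.0825). It was called under library size scaling alone among the 13 alternatives that tested it (0.81, edgeR adjusted p = 0.0407). Nf1, the neurofibromin gene, lay at 4.14, 3.4 and 3.34 CPM in vehicle and 6.51, 5.09 and 5.22 CPM in PEox, with a log2 fold change of 0.63 that did not pass (edgeR adjusted p = 0.0541).

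**Figure D2:**
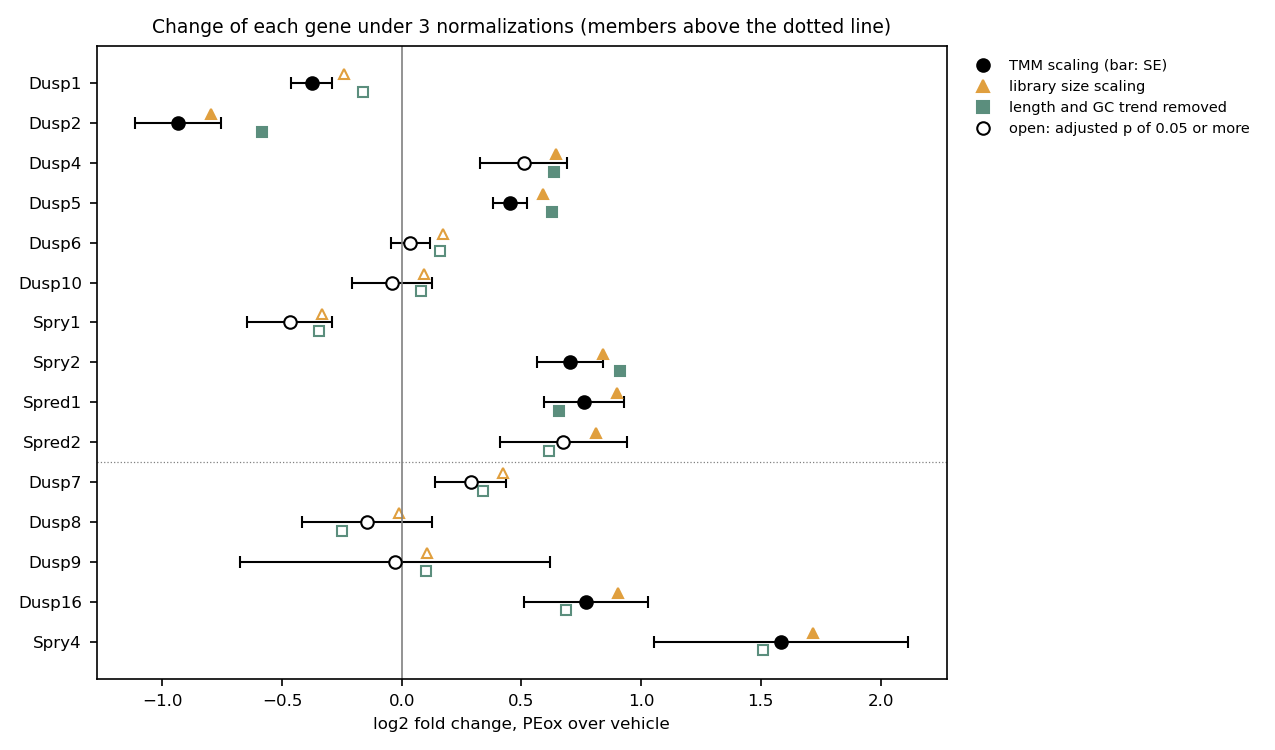
Log2 fold change of PEox over vehicle for the 10 members (above the dotted line) and 5 further members of the same families, with TMM scaling (circles, bars are SE), library size scaling (triangles) and the trend on length and GC taken out (squares). Filled symbols passed an adjusted p of 0.05 in edgeR and open symbols did not; the symbols of Dusp1 are filled with TMM scaling alone, at -0.38, and those of Dusp5, Spry2 and Spred1 are filled in all 3 settings.

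Levels of different genes were set side by side as CPM per kilobase of the longest annotated transcript. In vehicle the order was Dusp1 (64.7 ± 2.53), Dusp5 (26.2 ± 0.974), Dusp6 (17.2 ± 0.736), Spry2 (6.42 ± 0.517), Dusp2 (6.23 ± 0.751), Dusp10 (5.55 ± 0.659), Spry1 (5.41 ± 0.932), Dusp4 (3.73 ± 0.125), Spred1 (1.38 ± 0.0792) and Spred2 (0.456 ± 0.0824; CPM per kilobase, SD, n = 3 each). Neighbours in that order were separate in all libraries, except for Spry2 and Dusp2, Dusp2 and Dusp10, and Dusp10 and Spry1, whose ranges overlapped. In PEox the leading 4 kept their places, and Dusp2 moved from the fifth to the eighth place at 3.26 ± 0.284 CPM per kilobase (SD, n = 3). There the ranges of Dusp10 and Dusp4, and of Dusp4 and Spry1, overlapped. The order depends on the length used: by the median transcript length Dusp6 (29.6 CPM per kilobase) stood above Dusp5 (26.2) in vehicle and below it in PEox (30.4 and 35.8).

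The summed level of the 6 phosphatase genes was 122, 127 and 122 CPM per kilobase in vehicle and 116, 109 and 126 in PEox, so the groups overlapped. Within that sum the makeup shifted. Dusp1 made up 52.3% ± 0.748 in vehicle and 42.4% ± 1.94 in PEox, and Dusp5 made up 21.2% ± 0.635 and 30.6% ± 1.28 (SD, n = 3 each). Dusp2 went from 5.04% ± 0.588 to 2.8% ± 0.43 of the sum, while Dusp6 held 13.9% ± 0.901 and 15% ± 0.733 (SD, n = 3 each). Dusp1 and Dusp5 together held 72.4% to 74.4% in vehicle and 72.3% to 73.9% in PEox. The sum and these shares rest on the longest transcript alone and, like the order above, depend on the length used.

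**Figure D3:**
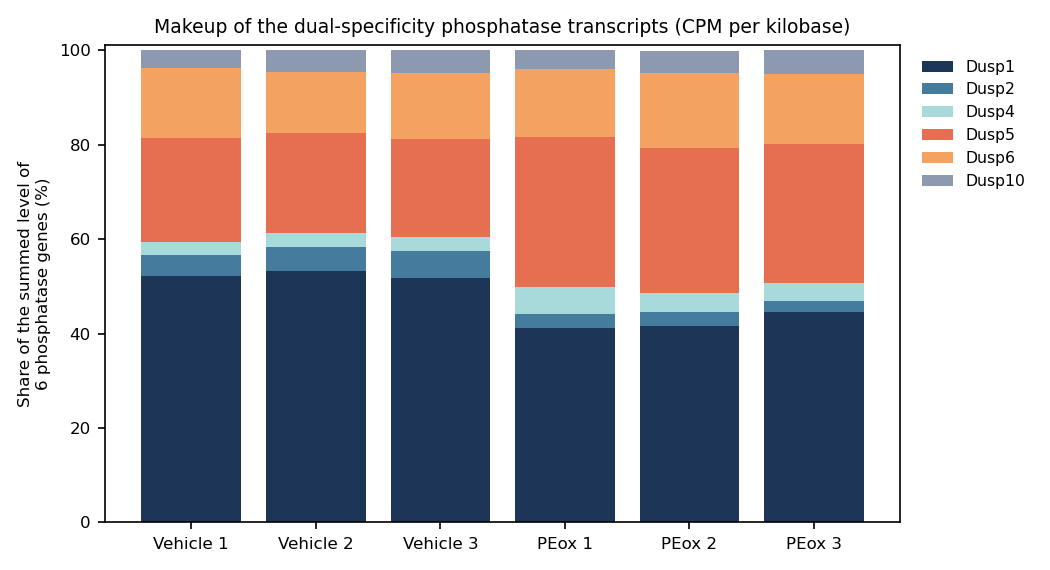
Share of each of 6 dual-specificity phosphatase genes (vertical axis, percent of their summed CPM per kilobase of the longest transcript) in each library, 1 bar a library. The Dusp1 part (dark blue) is smaller and the Dusp5 part (red) larger in the 3 PEox bars, at 42.4% and 30.6% on average against 52.3% and 21.2% in vehicle.

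Ratios of counts within a library do not depend on how libraries are scaled. For 4 pairs of related members, chosen after their values were seen, the ratio was compared between the groups with a two-sided exact permutation test, for which 0.1 is the smallest p that 3 against 3 libraries allow. Dusp5 had 0.449, 0.426 and 0.425 counts for each count of Dusp1 in vehicle, and 0.83, 0.791 and 0.702 in PEox. The groups lay far apart, with a difference of 0.83 on the log2 scale (exact p = 0.1, adjusted p = 0.133 over 4 pairs). Spry2 over Spry1 gave 0.835, 0.816 and 1.07 in vehicle and 2.19, 1.52 and 2.44 in PEox, a difference of 1.16 on the log2 scale with no overlap (exact p = 0.1, adjusted p = 0.133). Dusp4 over Dusp6 gave 0.196, 0.227 and 0.217 in vehicle and 0.391, 0.248 and 0.255 in PEox, a difference of 0.45 that rests largely on PEox library 1 (exact p = 0.1, adjusted p = 0.133). The ratio of Spred1 to Spred2 overlapped between the groups, with a difference of 0.06 (exact p = 0.7, adjusted p = 0.7).

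**Figure D4:**
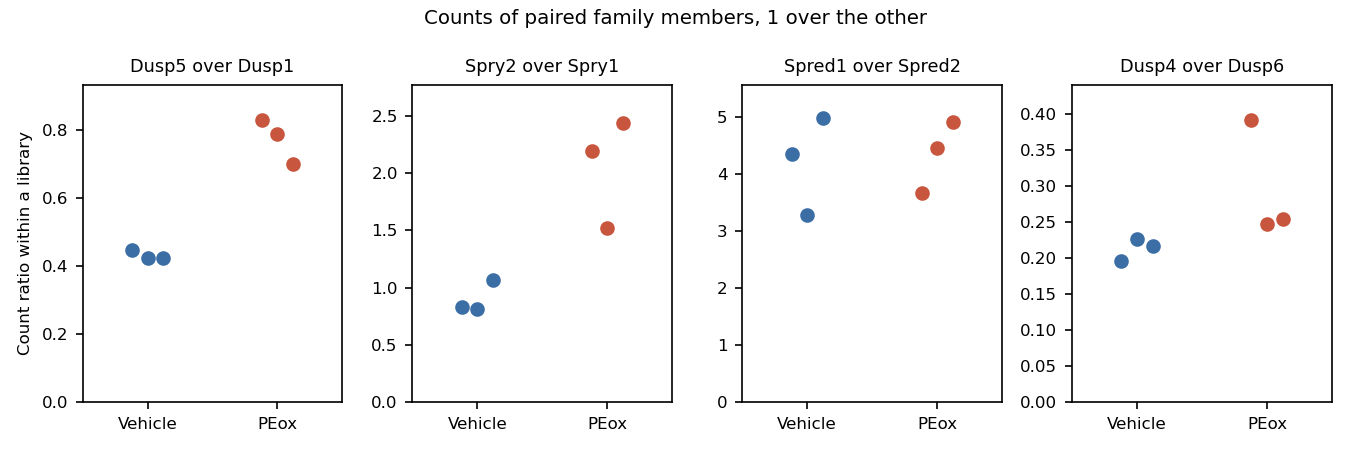
Ratio of the raw counts of a pair of members in each library (vertical axis from 0, no unit), for vehicle (blue) and PEox (red). Ratios of Dusp5 to Dusp1 lie between 0.425 and 0.449 in vehicle and between 0.702 and 0.83 in PEox, while those of Spred1 to Spred2 overlap.

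Of 7 further family members, 5 were tested, 2 were called higher and none lower, beside 37.1% of all genes called. Spry4, another Sprouty gene, rose from 0.331, 0.282 and 0.684 CPM in vehicle to 1.27, 1.39 and 1.24 CPM in PEox, at very low counts (log2 fold change 1.58 ± 0.53, SE; edgeR adjusted p = 0.0476). Dusp16, which encodes a phosphatase of JNK and p38, rose from 6.15, 7.49 and 5.69 CPM to 13.3, 7.11 and 12.6 CPM, where PEox library 2 lay below vehicle library 2 (log2 fold change 0.77 ± 0.26, SE; edgeR adjusted p = 0.0485). Both calls were lost in most alternatives that tested the gene, Spry4 in 8 of 13 and Dusp16 in 9 of 14. Spry4 lost its call without any one library but vehicle library 3 (edgeR adjusted p = 0.0732 to 0.147), and Dusp16 without any one library but PEox library 2 (0.0763 to 0.157). Dusp7 (log2 fold change 0.29), Dusp8 (-0.15) and Dusp9 (-0.03) did not pass, Spred3 was below the low count filter and no identifier was found for Spry3.

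Upstream of the feedback genes, of 15 tested receptors 6 were called higher and none lower (40%, near the 37.1% of all tested genes), with a median log2 fold change of 0.85, beside 0.00 over all genes. Kit, the receptor for stem cell factor, stood at 208, 225 and 236 CPM in vehicle and 393, 382 and 480 CPM in PEox (log2 fold change 0.91, edgeR adjusted p = 0.000142). Fgfr1, a fibroblast growth factor receptor, rose by 1.16, Igf1r by 1.16 and Erbb3 by 1.66 on the log2 scale. Among 15 genes of Ras proteins, their GTPase-activating proteins and Cbl ligases, 7 were called higher and 2 lower (60% called). The GTPase-activating proteins, which switch Ras off, included Rasal3 at 310, 313 and 296 CPM in vehicle and 484, 479 and 491 CPM in PEox (log2 fold change 0.66, edgeR adjusted p = 1.25e-05). Rasa3 rose by 1.08, Rasa2 by 0.64 and Rasa1 by 0.67, while Hras, a Ras gene, fell by 0.47 on the log2 scale. Of 16 activators and adaptors of Ras 3 rose and 4 fell (43.8% called), with Shc1 at 0.79 and Sos1 at 0.66 against Rasgrp2 at -1.31 and Rasgrf2 at -2.27.

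Genes of the kinase cascades that the feedback proteins limit, and of kinases below them, follow by branch. No difference between branches was tested. In the ERK cascade 4 of 13 genes were called higher and none lower, with a median of 0.02. That is 30.8% called, below the 37.1% of all tested genes. Among them, Braf, which encodes a kinase directly below Ras, rose by 0.70, the scaffold gene Shoc2 by 0.52 and Map2k1 by 0.45 on the log2 scale. The call of Braf was lost without vehicle library 1 (edgeR adjusted p = 0.0565) and without vehicle library 2 (0.0683), and with the trend on length and GC taken out (0.0545). The ERK gene Mapk3 lay at 34.3 and 34.9 CPM, with a log2 fold change of 0.02 that did not pass (edgeR adjusted p = 0.902). In the JNK and p38 cascades 12 of 22 were called higher and none lower (54.5% called), with a median of 0.53. The p38 genes Mapk11 (log2 fold change -1.32, edgeR adjusted p = 0.115) and Mapk12 (-2.49, 0.133) lay lower but did not pass, Mapk12 at very low counts. Mapk14, the main p38 gene, stood at 96.5, 109 and 119 CPM in vehicle and 225, 267 and 230 CPM in PEox (log2 fold change 1.15, edgeR adjusted p = 4.86e-05). The JNK gene Mapk9 rose by 0.70, Map3k1 by 1.07 and Map2k3 by 0.51. Of 10 kinases activated by MAPKs 6 rose and 1 fell (70% called), among them Rps6ka2 (2.15), Mknk2 (1.20), Mknk1 (0.55) and Mapkapk2 (-0.47).

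Genes transcribed downstream of ERK and the factors that transcribe them split, with 7 of 17 higher, 5 lower (70.6% called, beside 37.1% of all tested genes) and a median of -0.07. Egr1, an immediate early factor, measured 75.7, 82.4 and 86.2 CPM in vehicle and 104, 108 and 117 CPM in PEox (log2 fold change 0.43, edgeR adjusted p = 0.0024). Fos, another immediate early gene, went the other way, from 158, 139 and 135 CPM to 107, 108 and 106 CPM (-0.42, edgeR adjusted p = 0.00189). With the trend on length and GC taken out Fos lay at -0.17 (edgeR adjusted p = 0.0837). Etv5, an ETS factor often induced with Spry and Dusp genes, rose from 4.08, 3.23 and 3.4 CPM to 10.4, 6.75 and 11.3 CPM (1.41, edgeR adjusted p = 0.00243), and Myc fell by 0.87 on the log2 scale.

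Other brakes on the pathway divided evenly, with 6 of 20 higher and 6 lower (60% called). The signalling regulators Rgs1 and Rgs2 rose by 0.45 and 0.60, and Ptpn22, a phosphatase gene of lymphocyte signalling, by 0.67. Pebp1, which encodes a Raf inhibitor protein, fell by 0.54 on the log2 scale, but lay at -0.09 with the trend on length and GC taken out (edgeR adjusted p = 0.123). Of 12 further dual-specificity phosphatases 2 were called higher, Dusp14 by 1.48 and Dusp3 by 0.36, and none lower (16.7% called). Dusp14 lost its call without vehicle library 2 (edgeR adjusted p = 0.058), and Dusp3 without vehicle library 1 (0.0627) or 2 (0.0608). Styxl1 (1.86) and Dusp28 (0.36) did not pass. Over the 10 lists around the members 73 of 145 genes were called (50.3%, beside 37.1% of all genes), 55 higher and 18 lower, with a median of 0.29. The share called was larger among all genes with at least 5 CPM in 3 libraries (6507 of 10743 in a fit of those genes). A share above 37.1% therefore does not by itself set a list apart.

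**Figure D5:**
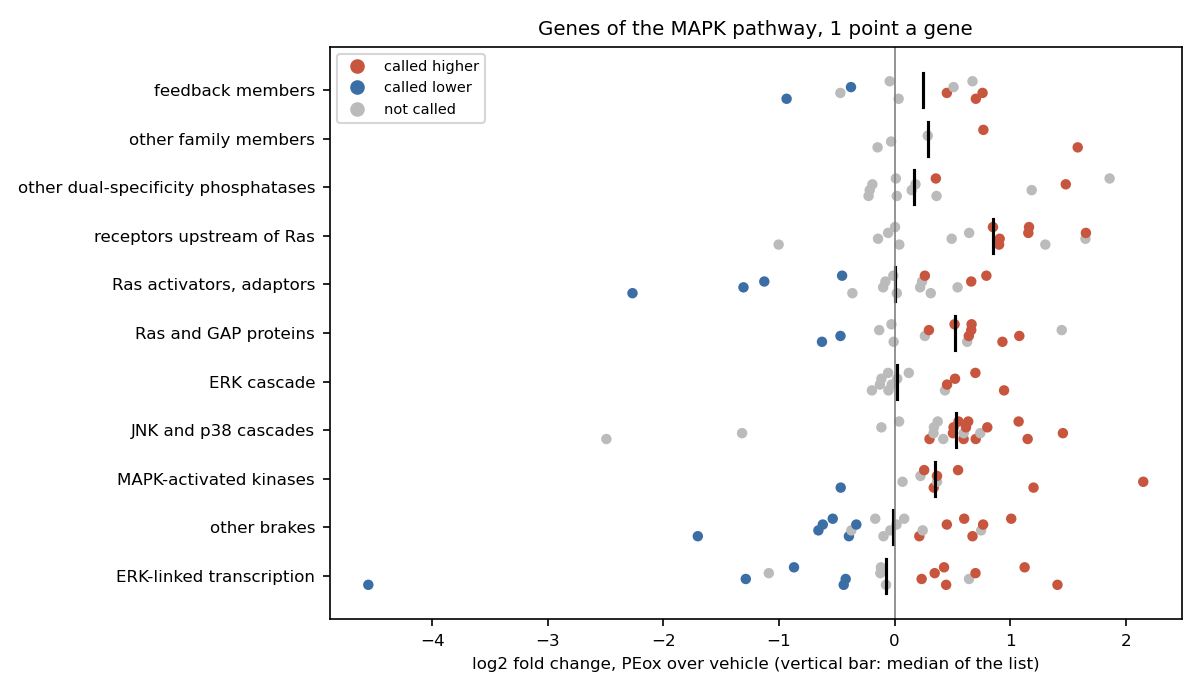
Log2 fold change of PEox over vehicle (horizontal axis) for each tested gene of the feedback group and of 10 lists around it, 1 point a gene, coloured by the call of the edgeR test, with the median of each list as a vertical bar. Points of the JNK and p38 cascades lie mostly right of 0 (12 of 22 called higher, none lower), and those of the feedback members lie on both sides.

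Of 10598 other genes with at least 5 CPM, the 3 whose log2 CPM followed Dusp1 most closely over the 6 libraries were Cyp1b1, Spryd4 and Pop4, with Pearson correlations of 0.995, 0.993 and 0.992. The libraries form 2 groups, whose difference these genes share, and the values are given as a description.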

How the data were processed

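RNA of 6 ILC3 libraries, 3 treated with vehicle and 3 with PEox, was read as 150-base pairs, cleaned with fastp and aligned with HISAT2 2.0.5, per the labels' protocols. A version of edgeR, 3.22.5, is named in the submitters' processing notes. The authors deposited raw counts per gene. Counter, build, annotation and strandedness: not given in the sources used here. Overlapping genes are therefore uncertain. Symbols came from a table of gene names that named 55141 of 55401 identifiers. The unnamed ones held at most 0.0191% of counts, and 0 sample columns were left unused.

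Counts were analysed with edgeR 4.0.16 in R 4.3.3: filterByExpr, TMM scaling (factors 0.951 to 1.05), a quasi-likelihood test (robust, groups without covariates) and Benjamini-Hochberg adjustment over 18253 genes. SE is the log2 fold change over the root of F. Within groups, libraries differed by more than sampling noise (chi-square per gene 15.6 to 35.4). In each library 3 counts equal 0.0449 to 0.0533 CPM. The procedure was run on simulated counts with few changed genes, as many up as down, and on simulated counts with a length trend. Far more genes were called in the real libraries, so the first run did not probe the choice of scaling. Lengths came from GENCODE M21, which may not be the authors' annotation. Alternatives were RLE and library size scaling, no filter, at least 5 CPM in 3 libraries, replicate blocks, leaving out each library, DESeq2 1.42.0, limma-voom 3.58.1 and removal of the length and GC trend (loess, span 0.5).

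The members and lists were chosen with earlier results of these data known. Named genes were the members, their family, up to 4 genes a list with the smallest p-values, the 3 genes most like the called member of highest CPM, and promoters of at most 4 called members. Nf1, Rasa1, Mapk3 and Etv5, the promoters shown, the phosphatase makeup, the count ratios and the ILC3 sum without Il22 and Id2 were chosen after values were seen. Some genes are not reported here.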

Additional observations from a re-analysis of the deposited data

How the results depend on the processing

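Of the 10 feedback genes 4 to 7 were called in each of the 14 alternative analyses, against 5 with the main settings: 4 without vehicle library 2, and 7 without PEox library 2 and at a minimum of 5 CPM. All-gene calls ranged from 5282 to 7404, against 6775, and calls in the pathway lists from 56 to 83, against 73. Signs of log2 fold changes turned only for genes that did not pass. Leaving out 1 library at a time gave -0.010 to 0.069 for Dusp6 (negative without PEox library 3), -0.189 to 0.061 for Dusp10 (positive, 0.021 and 0.061, without vehicle library 3 and PEox library 1) and -0.286 to 0.585 for Dusp9 (positive, 0.585 and 0.127, without vehicle library 1 and PEox library 3). Library size scaling gave 0.094 for Dusp10 and 0.107 for Dusp9, removal of the trend 0.081 and 0.100, limma-voom 0.075 for Dusp9 and replicate blocks 0.100 for Dusp9. The cause was not tested. Blocking by replicate number gave 5 members, 6159 genes in all and 75 pathway genes called. Libraries of the same number showed no pairing, with correlations of their deviations from the group means of 0.005, 0.014 and -0.006. Counts of Spred2, Spry4 and Dusp9 were low, which limits the precision of their fold changes.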
